A study of Arabidopsis thaliana with 4 samples.

Results

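The genes described here encode proteins of the cytosolic ribosome of Arabidopsis thaliana. They are 58 nuclear loci, taken by their annotation as cytosolic ribosomal protein genes; the rule used no measured value, but this group of genes was picked with earlier results of these data known. Of these, 31 had an Affymetrix ATH1 probe set assigned to that gene alone, among 13286 genes with such a probe set in the series and 22746 probe sets in all. Another 12 loci lay only on 10 probe sets shared with other genes and 15 had no listed probe set, so 27 loci were not analysed here. The 31 measured genes belong to 26 protein families, 9 of them coding for the small and 22 for the large ribosomal subunit. Family names follow the standard naming of ribosomal proteins and are background, since the annotation used here gives locus identifiers for nearly all of these genes.

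RNA was taken from the aerial parts of seedlings harvested at 2 weeks, grown on sucrose-containing medium in long days, with no further treatment named. Each genotype had 2 arrays, labelled as biological replicates: Col-0, the wild type, and aln-1, which carries a mutant allele of ALN in the same background. ALN encodes allantoinase, which hydrolyses allantoin in purine breakdown, and the mutant is known to accumulate this intermediate. The mutant is represented by 1 allele, and the comparison asks which transcripts differ in seedlings that accumulate allantoin.

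A cytosolic ribosome joins a small subunit, which reads the messenger RNA, to a large subunit, which forms the peptide bonds. In Arabidopsis nearly every ribosomal protein is encoded by a small family of nuclear genes, so that the same position in the ribosome can be filled from several loci. On the large subunit a flexible stalk made of P0, P1 and P2 binds the elongation factors: P0 anchors the stalk to the ribosomal RNA and carries the P1 and P2 proteins. Growing tissue needs many ribosomes, and the transcripts of these genes are among the abundant ones of young leaves and meristems.

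Each deposited value is the log2 signal of a probe set on 1 array after subtraction of that probe set's median across arrays. The middle pair of values of a probe set is therefore equal with opposite signs, and levels of different genes cannot be compared. For the same reason the presence of leaf or root transcripts cannot be read as a level. Differences are the aln-1 mean minus the wild type mean on the log2 scale, with the standard error (SE) or 95% interval of limma, a linear model that shares variance information over all probe sets. The smallest two-sided p of an exact permutation test is 0.333 with 2 arrays against 2, so only limma p-values are given. The ALN probe set was at 1.59 and 2.03 in wild type and at -1.59 and -1.72 in aln-1, a difference of -3.46 (SE 0.22). Its limma adjusted p over all probe sets was 0.0580, which is short of the threshold used below. The mutated gene itself was thus not called, so the lack of a call does not show the lack of a difference. The median difference over all probe sets was -0.076, which is the size of many differences below.

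A single ribosomal protein gene stood apart from the others. AT2G40010, a P0 gene of the stalk base, was at -1.65 and -2.11 on the wild type arrays and at 1.81 and 1.65 on the aln-1 arrays. Both aln-1 arrays lay far above both wild type arrays, with a wild type mean of -1.88 ± 0.33 and an aln-1 mean of 1.73 ± 0.12 (SD, n = 2 per genotype). Its within-genotype SD of 0.24 was small beside that gap but above the median of 0.05 over the 31 genes. The difference was 3.61 (SE 0.23) on the log2 scale, with a 95% interval from 2.92 to 4.29. Wild type signal may have been near background: if the logarithm has base 2, the rounding step of wild type replicate 2 belongs to a signal below 16, and detection calls were not used here. The size of the difference is therefore uncertain and no fold is given. In limma its adjusted p over all probe sets was 0.0580, just short of the threshold of 0.05, and leaving out each array in turn gave differences between 3.38 and 3.84. In the series 125 of 22746 probe sets had a difference at least as high, 72 of them assigned to a single gene.

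At an adjusted limma p under 0.05, 0 of the 31 genes were called, against 0.255% of all probe sets. With the variance prior set within classes of rounding step, an alternative chosen after seeing the data, the count was again 0, against 4.54% of all probe sets. At an unadjusted limma p under 0.05 there was 1 of 31 in the main fit, AT2G40010, against 23.4% of all probe sets. With the prior within classes of rounding step there were 3 of 31, against 6280 of 22746 probe sets. In the main fit the smallest adjusted p among the 30 genes other than AT2G40010 was 0.231. Their differences ran from -0.47 to 0.26, and 29 of the 30 had a limma 95% interval that lay wholly inside a 2-fold change in either direction. The exception was AT2G37600, with a lower bound of -1.02. These SEs and intervals lean on the variance shared over all probe sets, and the smallest limma SE among the 30 genes was 0.13. For AT2G19730, with tight replicates, the SE was 0.13 in limma and 0.0082 from its own arrays alone. For AT2G37190, with wide replicates in aln-1, these were 0.23 and 0.25.

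**Figure D1:**
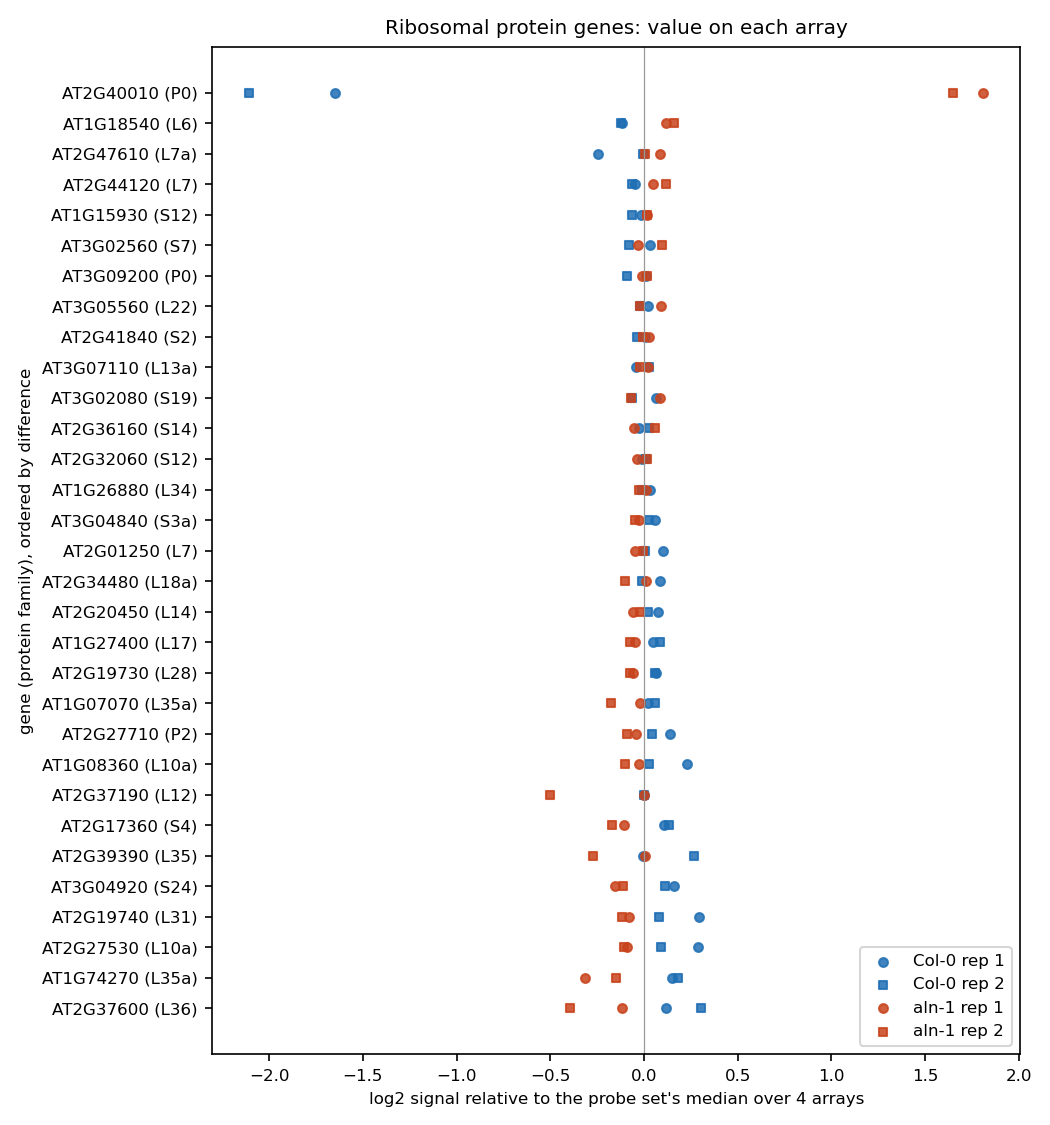
Value of each of the 31 measured ribosomal protein genes on the 4 arrays, on the horizontal axis as log2 signal minus the probe set's median; circles are replicate 1 and squares replicate 2, blue for Col-0 and red for aln-1. AT2G40010 at the top spans -2.11 to 1.81, while no other gene reaches beyond -0.50 or 0.31.

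The centre of the module lay where the centre of all probe sets lay. The median difference was -0.079 over the 31 genes and -0.080 without AT2G40010, against -0.076 over all probe sets. The median of the 31 genes was 0.03 and 0.02 on the wild type arrays and -0.03 and -0.05 on the aln-1 arrays, beside array medians over all probe sets of 0.04, 0.02, -0.02 and -0.04. With every array centred on its own median the median difference of the 31 genes was -0.023, against -0.019 over all probe sets. It was -0.032 without wild type replicate 1 and -0.11 without wild type replicate 2.

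On the deposited scale, counts of genes whose genotypes did not overlap leaned towards lower values in aln-1, as did those of all probe sets. With arrays centred the counts for the module were nearly even. In 15 of 31 genes (48.4%) both aln-1 arrays lay below both wild type arrays, as did 34.9% of all probe sets and 43.7% of those with a coarse rounding step, explained below. In 5 of 31 genes (16.1%) both lay above, against 25.2% of all probe sets and 26.9% of those with a coarse step. After the arrays were centred on their medians these counts were 11 and 10 of 31, against 31.0% and 28.8% of all probe sets. With an array left out the rule asks for fewer pairs, and the count above then ranged up to 9, reached without aln-1 replicate 1. It was 8 when wild type replicate 1 or aln-1 replicate 2 was left out. The share over all probe sets under this looser rule is not given here, so these counts cannot be set against it. With all arrays, 11 genes overlapped between the genotypes.

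The spread between replicates was small in these genes. Their median within-genotype SD was 0.05 on the log2 scale, against 0.22 over all probe sets. A difference under 0.5 on the log2 scale was found in 30 of the 31 genes, against 56.6% of all probe sets. The rounding step of the deposited values gives a rough guide to brightness, since large logarithms were stored with coarser steps than small ones. If the logarithm has base 2, 26 of the 31 genes had the step of signals of at least 256 and 4 had no readable step. Among the 9597 probe sets with that coarse step the median SD was 0.14, and 69.1% differed by under 0.5. AT2G40010 was the only gene of the module with a finer step, the one given above for wild type replicate 2.

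Among the genes of the P stalk, 3 measured P0 genes could be set side by side. AT3G09200, the other P0 gene of the module, was at 0.01 and -0.09 in wild type and at -0.01 and 0.02 in aln-1, a difference of 0.04 with a limma 95% interval from -0.36 to 0.44. The third P0 gene, AT3G11250, from the list of remaining ribosomal protein genes, was at -0.12 and 0.14 in wild type and at 0.12 and -0.19 in aln-1, a difference of -0.04 (SE 0.20). Both of these genes overlapped between the genotypes, whereas AT2G40010 did not. AT2G40010 minus AT3G09200 was -1.66 and -2.02 on the wild type arrays and 1.82 and 1.63 on the aln-1 arrays, so the relative change between these paralogs was 3.57. Against AT3G11250 it was 3.65. These differences between paralogs were not tested.

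Genes for neighbours of P0 in the stalk had small differences of either sign. AT2G27710, a P2 gene, was at 0.14 and 0.04 in wild type and at -0.04 and -0.09 in aln-1, a difference of -0.16 (SE 0.13). AT2G37190, a gene for L12, which sits with P0 at the base of the stalk, was at 0.00 on 3 arrays after rounding and at -0.50 on aln-1 replicate 2. Its difference of -0.25 (SE 0.23) rested on that array, and without aln-1 replicate 2 it was -0.0033. Genes for the same proteins outside the module were taken up after their values were seen. The P2 genes AT3G44590 and AT2G27720 differed by 0.33 and -0.03, and the L12 genes AT5G60670 and AT3G53430 by 0.14 and -0.14. None of these genes passed in limma.

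The other genes of the large subunit had small differences of either sign, with a median slightly below 0, as had all probe sets. Without the stalk genes there were 19 of them, with a median difference of -0.13, or -0.07 with arrays centred on their medians; 11 of 19 (57.9%) lay below wild type on both aln-1 arrays and 3 of 19 (15.8%) above. The shares over all probe sets were 34.9% and 25.2%, or 43.7% and 26.9% at the coarse step that most of these genes had. The lowest was AT2G37600, a gene for L36, at 0.12 and 0.31 in wild type and at -0.12 and -0.40 in aln-1. Its difference was -0.47 (SE 0.18), with no overlap between genotypes and a limma adjusted p of 0.248. AT1G74270, a gene for L35a, was at 0.15 and 0.18 in wild type and at -0.32 and -0.15 in aln-1, a difference of -0.40 (SE 0.14). This gene too did not overlap, and its limma adjusted p of 0.231 was the smallest after that of AT2G40010.

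AT2G27530 is PGY1, a gene for L10a of the mobile stalk at the exit side of the ribosome, known for its part in leaf patterning. It was at 0.29 and 0.09 in wild type and at -0.09 and -0.11 in aln-1, a difference of -0.29 (SE 0.15). AT2G19740, a gene for L31 near the end of the peptide tunnel, was at 0.30 and 0.08 in wild type and at -0.08 and -0.12 in aln-1, a difference of -0.29 (SE 0.15). In both genes wild type replicate 1 was the high array. AT2G39390, a gene for L35, which also lies at the tunnel exit, was at 0.00 and 0.27 in wild type and at 0.00 and -0.27 in aln-1. Its genotypes overlapped, and the difference of -0.27 (SE 0.20) came from the replicate 2 arrays alone.

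At the other end, 3 large subunit genes were higher on both aln-1 arrays. AT1G18540, a gene for L6, was at -0.12 and -0.12 in wild type and at 0.12 and 0.16 in aln-1, a difference of 0.26 (SE 0.13) and a limma adjusted p of 0.326. AT2G47610, a gene for L7a, was at -0.24 and -0.01 in wild type and at 0.08 and 0.01 in aln-1, a difference of 0.17 (SE 0.16). AT2G44120, a gene for L7, was at -0.05 and -0.06 in wild type and at 0.05 and 0.12 in aln-1, a difference of 0.14 (SE 0.13). Replicates were tight in AT1G18540, while in AT2G47610 the replicate 2 arrays of the genotypes were nearly equal.

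The rest of the large subunit genes lay between -0.19 and 0.03. AT1G08360, the other L10a gene of the module, was at 0.23 and 0.03 in wild type and at -0.03 and -0.10 in aln-1, a difference of -0.19. AT1G07070, the other L35a gene, was at 0.02 and 0.06 in wild type and at -0.02 and -0.18 in aln-1, a difference of -0.14. In each of these pairs the genes for the same protein thus had the same sign. Of the other pairs within the module, P0 had the same sign and L7 and S12 had opposite signs. AT2G19730 (L28) differed by -0.13, AT1G27400 (L17, which lines the peptide tunnel) by -0.13 and AT2G20450 (L14) by -0.09. In these 5 genes, from AT1G08360 to AT2G20450, the aln-1 arrays lay below the wild type arrays, by small steps. AT2G01250, the other L7 gene, was at 0.10 and 0.01 in wild type and at -0.05 and -0.01 in aln-1, a difference of -0.08. AT2G34480 (L18a) differed by -0.08, AT1G26880 (L34) by -0.02, AT3G07110 (L13a) by 0.01 and AT3G05560 (L22) by 0.03. Of these last 5, AT2G01250 alone did not overlap between the genotypes.

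**Figure D2:**
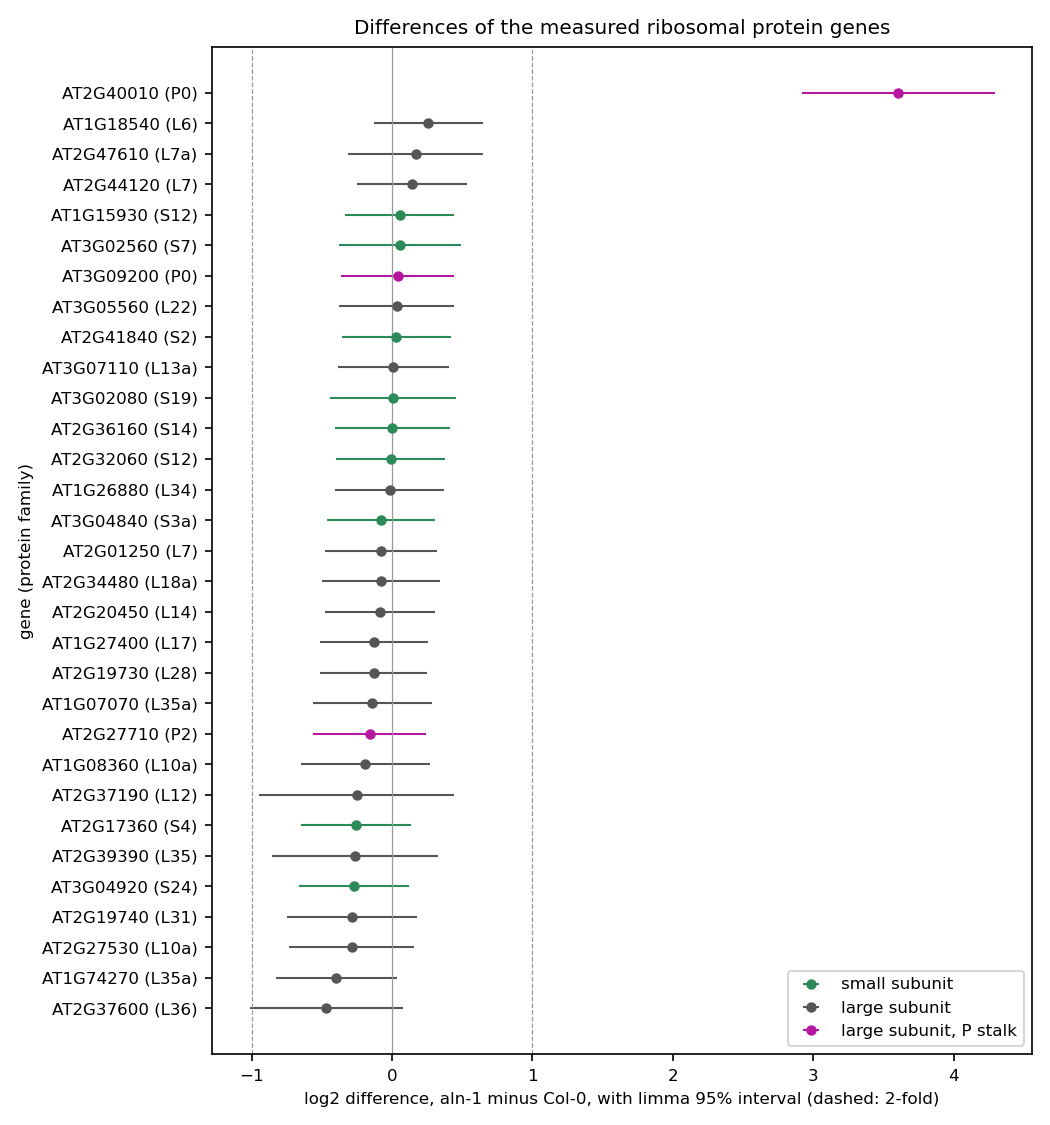
Difference of each measured ribosomal protein gene (horizontal axis, log2, aln-1 minus Col-0, with limma 95% intervals), coloured by subunit; dashed lines mark 2-fold. The interval of AT2G40010 runs from 2.92 to 4.29 and those of the other 30 genes include 0.

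The 9 small subunit genes had a median difference of 0.00 after rounding and a range from -0.27 to 0.05. Their median was 0.06 with arrays centred on their medians, beside -0.07 for the large subunit genes and -0.02 for all probe sets, and the difference between the subunits was not tested. AT3G04920, a gene for S24, was at 0.16 and 0.11 in wild type and at -0.16 and -0.11 in aln-1, a difference of -0.27 (SE 0.13). AT2G17360, a gene for S4, was at 0.11 and 0.13 in wild type and at -0.11 and -0.17 in aln-1, a difference of -0.26 (SE 0.13). These 2 genes had tight replicates and no overlap, with limma adjusted p of 0.310 and 0.331. The next lowest, AT3G04840 (S3a), differed by -0.08.

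The pair of S12 genes had small differences, AT1G15930 at 0.05 (SE 0.13) and AT2G32060 at -0.01 (SE 0.13). AT1G15930 was at -0.01 and -0.06 in wild type and at 0.02 and 0.01 in aln-1, the only small subunit gene above wild type on both arrays. AT2G32060 was at -0.01 and 0.01 in wild type and at -0.04 and 0.02 in aln-1. AT3G02560 (S7) was at 0.03 and -0.08 in wild type and at -0.03 and 0.10 in aln-1, a difference of 0.05. AT2G41840 (S2), AT3G02080 (S19) and AT2G36160 (S14) differed by 0.03, 0.01 and 0.00. These 4 genes overlapped between the genotypes. The sign of such small values means little: it turned for 8 of the 31 genes with an array left out, and 2 of these, AT1G26880 and AT2G32060, also turned with the arrays centred.

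Ribosomal protein families offered a comparison between genes for the same protein. Of the 26 families, 25 had more than 1 measured gene when the remaining cytosolic ribosomal protein genes were added. In 20 of the 25 all genes lay within 0.5 of each other on the log2 scale. The L31 genes, for example, differed by -0.29, -0.24 and -0.23, and the L7a genes by 0.17 and 0.20. Differences under 0.5 were found in 30 of the 31 genes of the module and in 71 of the 82 remaining ones. The count of 20 therefore cannot show agreement between genes for the same protein. The 5 families with a wider range were P0, L35, L10a, L13a and S19, and apart from P0 the highest gene of each lay outside the module. The genes named in the next sentences were taken up after their values were seen, because they share a family with a gene of the module.

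AT3G55170 of the L35 family was at -0.55 and -0.66 in wild type and at 0.71 and 0.55 in aln-1, a difference of 1.23 (SE 0.15) and a limma adjusted p of 0.0866. The other L35 genes AT5G02610, AT3G09500 and AT2G39390 differed by 0.33, -0.09 and -0.27. In the L10a family AT5G22440 was at -0.43 and -0.30 in wild type and at 0.30 and 0.39 in aln-1, a difference of 0.71 (SE 0.14), while the L10a genes of the module, PGY1 and AT1G08360, were at -0.29 and -0.19. Both families thus held genes with differences of opposite sign. In the S19 family AT5G15520 differed by 0.59 against 0.01 for AT3G02080 and -0.02 for AT5G61170. In the L13a family AT4G13170 differed by 0.38, AT3G07110 by 0.01 and AT3G24830 by -0.32. None of these genes passed in limma over all probe sets, and the differences between paralogs were not tested.

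**Figure D3:**
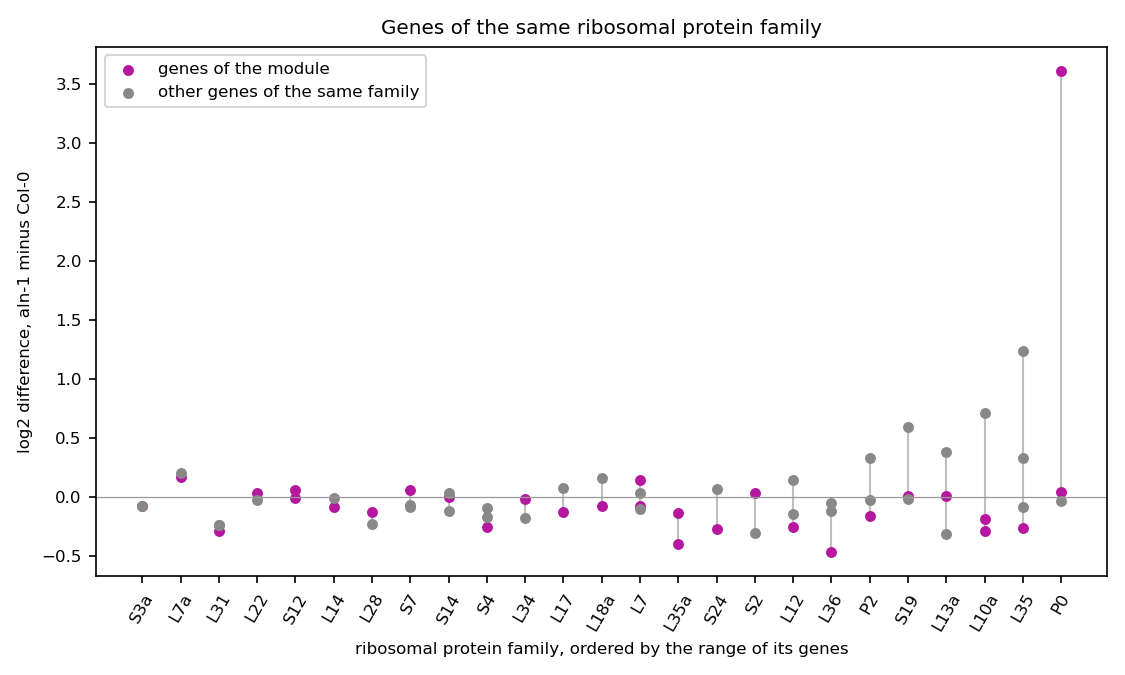
Log2 difference (vertical axis, aln-1 minus Col-0) of all measured genes in the 25 families with more than 1 measured gene, ordered by the range within the family; coloured points are genes of the module and grey points other genes for the same protein. The P0 family at the right has the widest range, from -0.04 to 3.61, followed by L35, from -0.27 to 1.23.

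The remaining cytosolic ribosomal protein genes had nearly the same centre as the module. Of 144 loci 82 were measured, with a median difference of -0.07, 30 (36.6%) below wild type on both aln-1 arrays and 18 (22.0%) above, near the 34.9% and 25.2% of all probe sets. Limma called 0 of them, and 6 were at an unadjusted p under 0.05, against 23.4% of all probe sets. The highest was AT2G39590 (S15a) with 1.27, at 0.80 and -3.27 in wild type and at 0.86 and -0.80 in aln-1, with overlap. The lowest was AT3G10950 (L37a) with -2.90, at 1.16 and 0.70 in wild type and at -3.24 and -0.70 in aln-1. In both genes the arrays of at least 1 genotype differed by more than 2-fold. A difference of at least 2-fold was found in 3 of the 82 genes and in 1 of the 31, against 20.7% of all probe sets.

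Genes that build the ribosome and use it were covered thinly. Of 38 ribosome assembly factors 16 were measured, with a median difference of -0.08. On both aln-1 arrays 5 of 16 lay below wild type (34.9% of all probe sets) and 0 above (25.2%). Limma called 0 of them, and 1 was at an unadjusted p under 0.05 (23.4% of all probe sets). They ran from -0.54 for AT3G12860, a gene for NOP56, which belongs to the particles that methylate ribosomal RNA, to 0.15 for AT5G41190, NOB1, an endonuclease of small subunit maturation. Of 40 translation factor genes 4 were measured: AT5G12110 and AT5G19510, for subunits of the exchange factor of elongation factor 1A, differed by -0.62 (SE 0.15) and -0.12 (SE 0.14), AT2G40290, for the alpha subunit of initiation factor 2, by -0.43 (SE 0.13), and EIF4A-2, an RNA helicase of initiation, by 0.17 (SE 0.13). For all 4 the genotypes did not overlap, 3 with the aln-1 arrays lower (34.9% of all probe sets) and 1 with them higher (25.2%). In limma 0 of 4 passed, and 2 were at an unadjusted p under 0.05 (23.4% of all probe sets). Of 8 genes of TOR kinase signalling, which controls ribosome production, 2 were measured: RAPTOR1 differed by -0.14 and AT5G63190 by 0.11, both with overlap.

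Genes for ribosomal proteins of the plastid, encoded in the nucleus, had more negative differences than those of the cytosolic ribosome. Of 31 such loci 7 were measured, all 7 with a difference below 0, as were 12701 of 22746 probe sets. In 6 of the 7 both aln-1 arrays lay below both wild type arrays. This held for 34.9% of all probe sets and for 43.7% of those with the coarse step that all 7 had. The median difference was -0.59, beside -0.079 for the cytosolic module and -0.076 for all probe sets. The values ran from -0.65 for AT5G47190 (L19 of the plastid ribosome), at 0.27 and 0.28 in wild type and at -0.27 and -0.47 in aln-1, to -0.16 for AT5G65220 (L29). Replicate 2 of aln-1 was the lower array in all 7, with a median of -0.58 against -0.17 on replicate 1. Without aln-1 replicate 2 the median difference was -0.36. Limma called 0 of the 7 (1 at an unadjusted p under 0.05, against 23.4% of all probe sets), and the difference between the plastid and cytosolic lists was not tested.

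**Figure D4:**
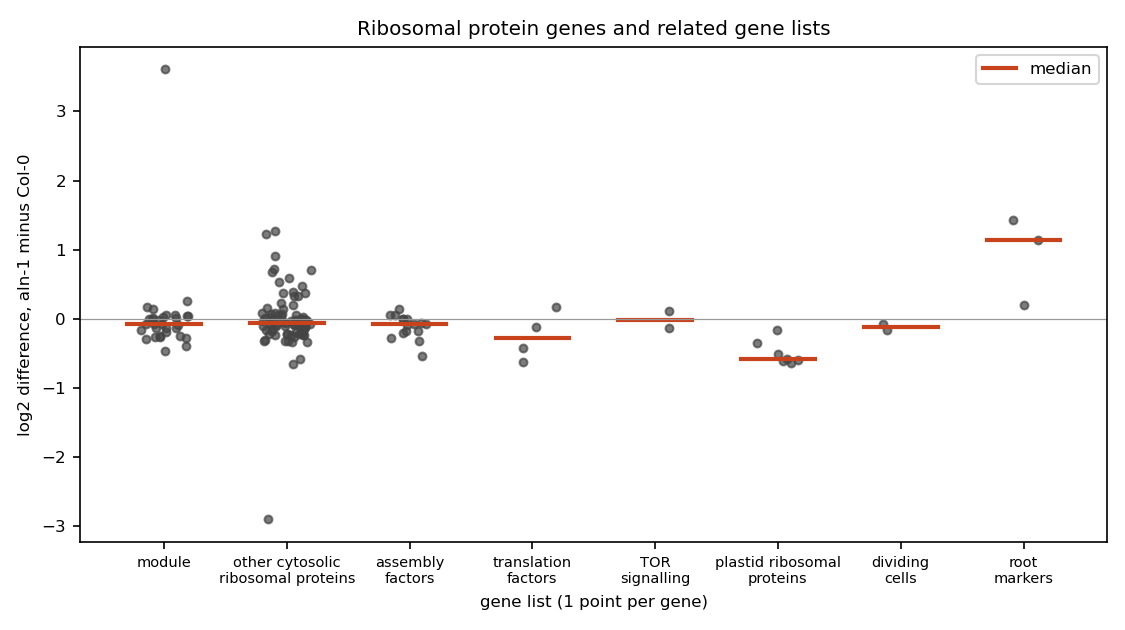
Log2 difference (vertical axis, aln-1 minus Col-0) of each measured gene in the ribosomal protein module and in 7 related lists, 1 point a gene, with list medians as red bars. Medians lie at -0.08 for the module, -0.59 for plastid ribosomal proteins and 1.14 for the 3 root markers.

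Few markers of other cells were measured. Of 13 markers of dividing cells 2 were measured, the mitotic kinase genes AUR1 and AUR2, with differences of -0.08 and -0.17 and overlapping genotypes. All 3 root markers on the list were measured, and each was higher on both aln-1 arrays, as were 25.2% of all probe sets: EXPA7 differed by 1.43, EXPA18 by 1.14 and PYK10, an abundant root glucosidase, by 0.20. Their median was -0.67 and -0.37 on the wild type arrays and 0.37 and 0.71 on the aln-1 arrays. Limma called 0 of the 3 (2 at an unadjusted p under 0.05, against 23.4% of all probe sets). The root markers thus had the sign of AT2G40010, and their part in these values was not tested. In whole aerial parts, a different share of a cell type and a different RNA amount per cell cannot be told apart.

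The genes next to AT2G40010 on chromosome 2 differed in sign among themselves. The nearest 5 measured genes on each side were taken, a choice made after the value of AT2G40010 was seen. All 10 had genotypes that did not overlap, 8 with the aln-1 arrays lower, as in 34.9% of all probe sets, and 2 with them higher, as in 25.2%. AT2G40020, the next gene in the table, was at 0.16 and 0.46 in wild type and at -0.16 and -0.85 in aln-1, a difference of -0.81 (SE 0.32). On the other side the nearest measured gene, AT2G39980, was at -0.76 and -0.43 in wild type and at 0.43 and 0.49 in aln-1, a difference of 1.05 (SE 0.18). The lowest of the 10 was AT2G40050 with -2.62 (SE 0.76). AT2G40010 overlaps the long noncoding RNA gene AT2G40008 in the gene table, the strand of either is not in that table, and the position of the probes was not used here, so signal of these 2 genes cannot be told apart. The limma adjusted p of the 10 neighbours ran from 0.113 to 0.337.

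**Figure D5:**
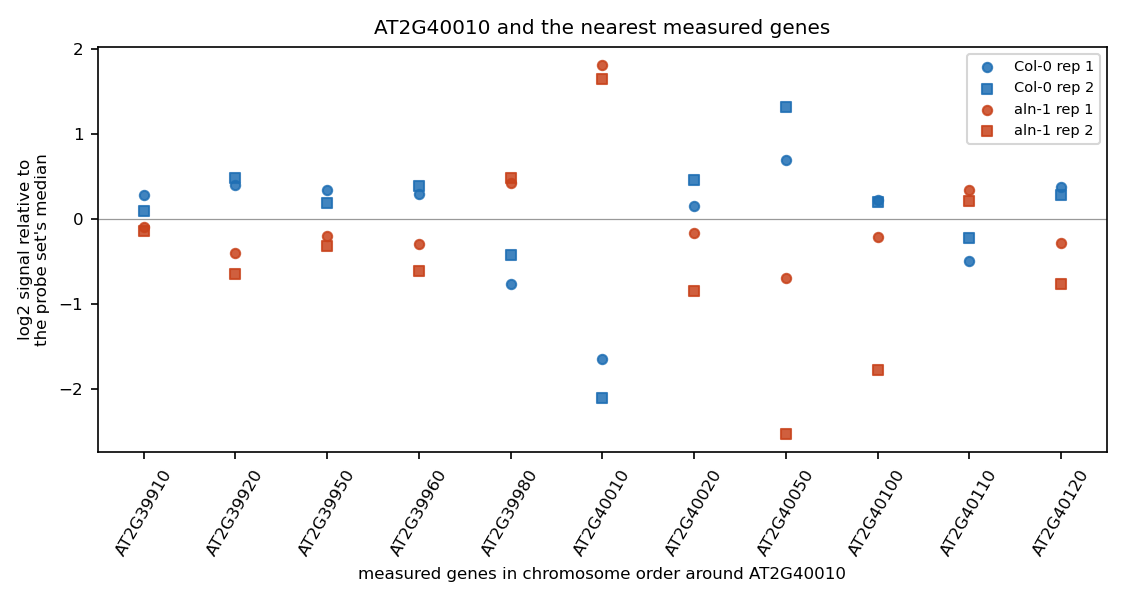
Values of AT2G40010 and of the 5 nearest measured genes on each side, in chromosome order; the vertical axis is log2 signal minus the probe set's median, blue for Col-0 and red for aln-1, circles for replicate 1 and squares for replicate 2. AT2G40010 has the widest separation, and 8 of its 10 neighbours lie lower in aln-1.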

How the data were processed

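Signals of 4 ATH1 arrays were made with MAS5, per the submitters' processing notes, with settings not stated in the sources used here. The deposited table holds log2 values, and the values themselves show centring on each probe set's median: the middle pair of values summed to 0 within 1.404e-06 in every row. Base 2 is assumed, so fold limits and signal limits rest on it. Signal levels and detection calls are not in these values, no filter or pseudocount was used, and the number of arrays limits the precision. Of 22746 probe sets, 13513 had 1 gene, 503 several and 8730 none listed; 13436 of those with 1 gene matched a RefSeq gene table of TAIR10.1, used for names and neighbours only. All 31 probe sets of the module were of the type without a shared-transcript suffix.

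Genotype was fitted over all probe sets with limma 3.58.1 in R 4.3.3 (lmFit, eBayes, two-sided, Benjamini-Hochberg, threshold 0.05). Alternatives were array centring, quantile normalization, variance priors, the replicate number as a block, thresholds and each array left out. Every measured gene of the module is named. Given with all 4 values by rule were genes past the threshold (0), the 6 highest and 6 lowest, and genes sharing a family with another measured gene of the module; AT2G17360, AT2G27710 and AT2G37190 were added after their values were seen. Other lists are named by their extremes. Promoter motifs were not analysed here. The members and lists were chosen with earlier results of these data known.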

Additional observations from a re-analysis of the deposited data

How the results depend on the processing

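Of the 31 genes, 0 passed in limma with arrays centred, quantile normalization, a robust prior, the replicate block, each array left out, a threshold of 0.01, or priors within rounding-step classes (chosen after seeing the data); at a threshold of 0.1, 1 passed. AT2G40010 ranged from 3.38 to 3.84 over the 6 alternatives that can move a difference (scaling, or an array left out), and over all 9 its limma adjusted p ran from 0.0525 to 0.289. The 58 calls over all probe sets became 0 with quantile normalization (5713 at an unadjusted p under 0.05), the robust prior (5084), the replicate block (4460), a threshold of 0.01 and each array left out (0 to 0), 1033 with class priors and 1078 at a threshold of 0.1. With arrays centred on their medians 82 probe sets were called. Where no probe set passed, the 0 calls in the module say nothing about its genes. Same-numbered arrays did not deviate together (correlation 0.0209 over probe sets). The block and the omission of an array reduce the residual degrees of freedom; for the rest the cause was not tested. The median difference of the 31 genes was -0.023 with arrays centred, -0.022 with quantile normalization and -0.11 to -0.032 with an array left out; with the replicate block it was -0.079. The count above wild type was 10 with arrays centred (28.8% of all probe sets) and 10 with quantile normalization. The count below was 11 (31.0% of all probe sets) and 11. With an array left out the rule asks for fewer pairs, and the counts were 6 to 9 above and 17 to 20 below. Shares over all probe sets are not given for quantile normalization or an array left out, so those counts show nothing particular to the module.

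Under the 6 alternatives that can move a difference, 168 of 186 values kept their sign and 18 changed it, in 8 genes near 0. With arrays centred AT1G26880 was 0.039 and AT2G32060 0.046; with quantile normalization AT1G26880 was 0.046 and AT2G32060 0.046. With each array left out AT1G26880 ranged from -0.038 to 0.0039, AT2G32060 from -0.037 to 0.017, AT2G36160 from -0.056 to 0.060, AT3G02080 from -0.071 to 0.087, AT3G07110 from -0.024 to 0.044, AT3G05560 from -0.024 to 0.090, AT3G09200 from -0.011 to 0.091 and AT3G02560 from -0.011 to 0.12. The median of the plastid ribosomal protein genes was -0.53 with arrays centred, -0.52 with quantile normalization and -0.74 to -0.36 with an array left out.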
